A study of Homo sapiens with 16 samples.

Results

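The response to an adenovirus carrying PRH was examined in CCLP1 cells labelled as carrying an shRNA against NOTCH3. These libraries were chosen by their column names in the deposited table of the experiment that crosses a NOTCH3 shRNA with the virus, and they are 4 of the 16 libraries of the series. CCLP1 is an established line from an intrahepatic cholangiocarcinoma, a cancer of the bile duct epithelium. All groups are poly(A) RNA-seq libraries labelled as this line, grown in high-glucose DMEM with fetal bovine serum. The groups were cells labelled NOTCH3 shRNA with the myc-PRH adenovirus (n = 2), cells labelled NOTCH3 shRNA with an empty adenovirus (n = 2), cells with a non-targeting shRNA and the myc-PRH adenovirus (n = 2) and cells with a non-targeting shRNA and the empty adenovirus (n = 2). Every one of these 8 libraries therefore carried an shRNA and an adenovirus. Parental CCLP1 cells with the myc-PRH adenovirus (n = 2) or the empty adenovirus (n = 2) were held in another table and are set beside them for single genes. The labels call the control virus of the parental cells empty, while its columns are named for a GFP virus, and the files do not settle which it was. The replicates are separate infections with the virus, all in 1 cell line and, as far as the design text says, in 1 line per shRNA. The libraries of each group are called A and B here as names only.

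PRH, the product of the gene HHEX, is a homeodomain protein that binds DNA mainly to repress transcription, often together with Groucho/TLE co-repressors. It is needed for the development of the liver and the bile ducts. NOTCH3 is one of the Notch receptors: ligand binding leads to its cleavage by ADAM and gamma-secretase proteases, and the freed intracellular domain moves to the nucleus and switches on genes such as those of the HES and HEY families. The comparison asked how cells with the NOTCH3 shRNA respond to added PRH.

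HHEX was used to check the virus label and NOTCH3 to check the shRNA label. HHEX had 71910 and 46576 normalised counts with the PRH virus in cells labelled NOTCH3 shRNA, against 209 and 187 with the empty virus, a ratio of the means of 299.2 and a log2 fold change of 8.19 ± 0.22 (SE; limma, adjusted p = 3.04e-07). Reads from the viral copy would be counted as HHEX. In control shRNA libraries HHEX had 228980 and 330421 with the PRH virus, against 613 and 715 with the empty virus. The level of HHEX reached with the PRH virus was thus lower in the cells labelled NOTCH3 shRNA. The part of this level in the differences between the populations was not tested. NOTCH3 did not bear out the shRNA label. With the empty virus it had 655 and 1018 normalised counts in libraries labelled NOTCH3 shRNA, against 711 and 838 in control shRNA libraries. With the PRH virus NOTCH3 had 761 and 1086 in libraries labelled NOTCH3 shRNA and 2295 and 2488 in control shRNA libraries. The PRH virus thus left NOTCH3 at 0.15 ± 0.24 on the log2 scale in the libraries labelled NOTCH3 shRNA (limma, adjusted p = 0.799) and raised it by 1.63 in control shRNA cells (limma, adjusted p = 0.0012), and the difference between these changes was -1.47 (limma, adjusted p = 0.0279). The files do not say which part of NOTCH3 the shRNA targets, and protein was not analysed here.

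The libraries labelled NOTCH3 shRNA also stand apart from the rest of the experiment under either virus. KRT19, a keratin of the bile duct epithelium, had 52526 and 52517 normalised counts with the PRH virus and 51370 and 63763 with the empty virus in the libraries labelled NOTCH3 shRNA, against 0.852 to 55.4 in the 4 control shRNA libraries. CDH1, which encodes E-cadherin, had 28462 to 45665 in the 4 libraries labelled NOTCH3 shRNA and 14.3 to 106 in the control shRNA libraries. In the 4 libraries of parental cells, which were normalised separately, KRT19 had 11.7 to 36.6 and CDH1 9.55 to 18.8. Both genes were thus low in parental cells, as in control shRNA cells. In all, 281 genes had at least 1000 normalised counts in each library labelled NOTCH3 shRNA and at most 5% of that in each control shRNA library, and 6 genes had the converse. The shRNA and any other difference between the cell lines that carry it and its control cannot be told apart in this design. Of the 19 cholangiocyte markers listed, 17 reached 10 normalised counts in at least 1 of the 4 libraries, among them KRT19, EPCAM and SOX9. AQP1 (0 to 27.9) and PROM1 (0 to 10.6) are counted there too. The other 2 stayed under 10 in all 4 libraries. So did 7 of 12 hepatocyte, 5 of 13 fibroblast, 4 of 11 endothelial and 4 of 12 leukocyte markers. Of the markers of other cell types, ALB, CDH5 and TYROBP stayed under 4 normalised counts, while HNF4A of the hepatocyte list had 903 to 1142, CLDN5 of the endothelial list 259 to 411, and CD68 and CORO1A of the leukocyte list 867 to 2243 and 1725 to 1839. Because these are bulk libraries, fewer cells of a type and less RNA per cell cannot be told apart. Reads in genes numbered 47257779 to 69899040 per library.

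In the cells labelled NOTCH3 shRNA, 301 genes rose and 49 genes fell with the PRH virus out of 15836 tested (limma, adjusted p under 0.05), which is 1.90% and 0.309% of the genes tested and 2.21% together. Among these, 186 rose and 6 fell by at least 2-fold. The median log2 fold change was 1.16 over the genes that rose, -0.59 over those that fell and -0.01 over all genes tested. At an unadjusted p under 0.05 there were 2736 genes. The libraries of the virus groups do not overlap for any of the 350 genes, and they do not overlap for 46% of all genes tested either. The calls rest on a spread shared by the 8 libraries: with only the 4 libraries of the comparison in the fit, 3 genes passed, which were HHEX, HAPLN3, a link protein of the pericellular matrix, and TLE2. With either PRH virus library left out HHEX alone passed. Without empty virus library A 117 genes passed, 81 of them shared with the main result, and without empty virus library B 405 passed, 225 of them shared. The calls below are to be read with these values.

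**Figure D1:**
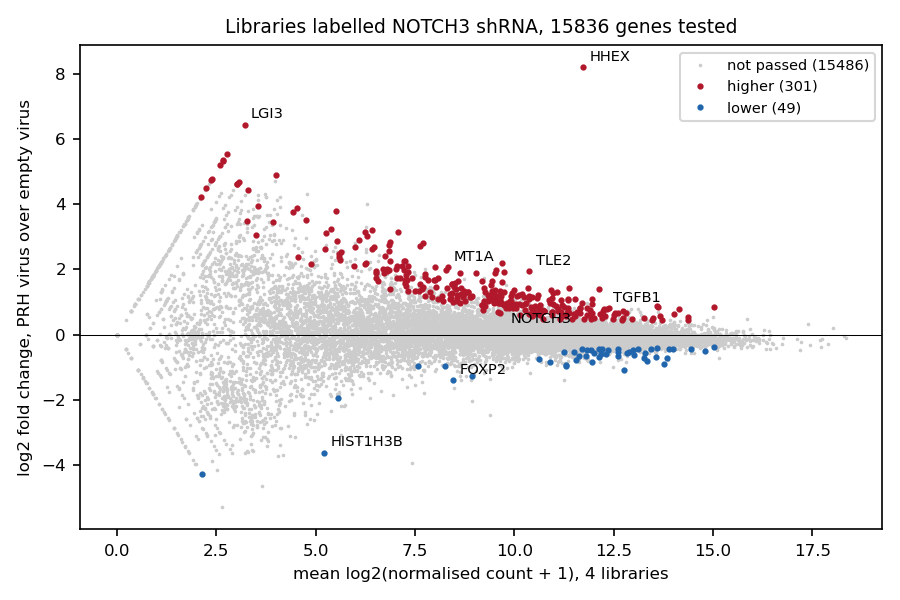
Each point is 1 of the 15836 genes tested in cells labelled NOTCH3 shRNA; the mean of log2(normalised count + 1) over the 4 libraries is on the x axis and the log2 fold change of PRH virus over empty virus on the y axis. The 301 genes that rose are red and the 49 that fell are blue, and HHEX stands alone at 8.19.

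Promoters of 4 of the genes with the largest change are shown because the direction of change went with the base composition of the genes, described further on. They are the RefSeq windows from 250 bases before to 50 bases after the gene start (build GRCh38.p14), and capitals mark the motif GGGCGG on either strand (CCGCCC on the other). The first pair rose and the second pair fell.
SLC8A2 (chr19:47471844-47472143, minus strand): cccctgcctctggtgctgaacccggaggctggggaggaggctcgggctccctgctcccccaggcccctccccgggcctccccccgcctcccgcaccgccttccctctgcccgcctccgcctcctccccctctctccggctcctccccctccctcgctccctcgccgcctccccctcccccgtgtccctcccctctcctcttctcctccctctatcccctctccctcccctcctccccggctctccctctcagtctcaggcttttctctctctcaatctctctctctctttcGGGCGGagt
CAMKV (chr3:49869857-49870156, minus strand): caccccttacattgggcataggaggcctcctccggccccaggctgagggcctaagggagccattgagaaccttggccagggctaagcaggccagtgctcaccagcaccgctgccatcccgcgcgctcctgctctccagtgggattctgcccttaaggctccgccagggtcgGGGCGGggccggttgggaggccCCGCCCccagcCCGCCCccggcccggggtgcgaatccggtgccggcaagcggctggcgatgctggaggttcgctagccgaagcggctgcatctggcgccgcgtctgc
NCAM2 (chr21:21146912-21147211, plus strand): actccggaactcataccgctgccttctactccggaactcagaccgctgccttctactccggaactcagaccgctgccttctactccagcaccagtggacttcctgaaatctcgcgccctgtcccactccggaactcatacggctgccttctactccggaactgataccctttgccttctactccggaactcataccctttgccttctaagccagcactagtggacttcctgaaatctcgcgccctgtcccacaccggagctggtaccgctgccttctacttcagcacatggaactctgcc
LGALS3 (chr14:55129002-55129301, plus strand): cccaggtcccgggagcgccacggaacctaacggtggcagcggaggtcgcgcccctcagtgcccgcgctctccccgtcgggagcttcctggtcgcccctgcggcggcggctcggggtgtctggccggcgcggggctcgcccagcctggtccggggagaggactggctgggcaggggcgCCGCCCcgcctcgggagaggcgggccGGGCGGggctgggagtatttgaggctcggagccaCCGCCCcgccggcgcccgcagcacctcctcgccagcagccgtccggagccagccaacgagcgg

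GGGCGG was found 1 time in the SLC8A2 window, 3 times in the CAMKV window, 0 times in the NCAM2 window and 3 times in the LGALS3 window. The GC content of these windows was 71.3%, 71%, 56.7% and 78.3% in the same order, against a median of 58.7% over all 35116 windows. GGGCGG on either strand is held by 45% of all these windows. The letters TAAT, the core of many homeodomain sites, were in none of the 4 windows and are in 50.2% of all windows on either strand. Only genes with exactly 1 window under their symbol were used, which held for 11 of the 30 genes with the largest change and 47.8% of the genes tested. A comparison of promoters between gene groups was void at this coverage.

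Apart from HHEX, the largest rises were in genes that were low with the empty virus. LGI3, which encodes a secreted leucine-rich repeat protein, had 72.3 and 101 normalised counts with the PRH virus and 0 in both libraries with the empty virus. This makes it at least 28.8-fold higher, taking 3 reads per library as the floor (limma, adjusted p = 0.0123). SLC8A2, a sodium/calcium exchanger, had 100.1 and 77.4 with the PRH virus, against 2.58 and 9.12 with the empty virus, a log2 fold change of 3.89 ± 0.59 (SE; limma, adjusted p = 0.0171). GABRD, the delta subunit of the GABA-A receptor, had 171 and 165 with the PRH virus, against 8.60 and 14.8 with the empty virus, a log2 fold change of 3.78 ± 0.45 (limma, adjusted p = 0.011). Both empty virus libraries were low in each of these genes; groups that do not overlap were part of how the largest changes were chosen.

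CAMKV, a kinase-like protein that binds calmodulin, had 91.4 and 91.4 normalised counts with the PRH virus, against 8.60 and 5.70 with the empty virus (log2 fold change 3.53, limma, adjusted p = 0.0183). HAP1, which encodes a partner of huntingtin, had 238 and 283 with the PRH virus, against 25.8 and 28.5 with the empty virus (log2 fold change 3.21, limma, adjusted p = 0.00913). CSPG4, the NG2 proteoglycan of the cell surface, had 314 and 509 with the PRH virus, against 27.5 and 69.5 with the empty virus (log2 fold change 3.16, limma, adjusted p = 0.0171). For HAP1 the libraries of each virus lay close together, whereas for CSPG4 library B was the higher one with either virus. CACNA1G, the pore-forming subunit of a T-type calcium channel, had 272 and 125 with the PRH virus, against 15.5 and 36.5 with the empty virus, a log2 fold change of 2.90 (limma, adjusted p = 0.034).

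Others among the 15 largest rises were STAC2, an adaptor of voltage-gated calcium channels, C16orf11, C9orf129, LRRC4B, a synaptic adhesion protein, CABP7, a calcium-binding protein, and TMEM145, with log2 fold changes of 4.90, 3.75, 3.46, 3.24, 3.13 and 3.02. All of these had under 50 normalised counts in each empty virus library, so their fold changes rest on few reads there. Of these 15 genes 14 also rose in control shRNA cells, where 15.2% of all genes tested rose. In parental cells, where 9.90% rose, 14 rose as well. C9orf129 was the one that did not pass in either. HHEX is counted in both, and its rise is given by the virus that carries it. Without empty virus library A the calls of C9orf129, CSPG4 and CACNA1G were among those lost, and edgeR lost that of C9orf129.

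**Figure D2:**
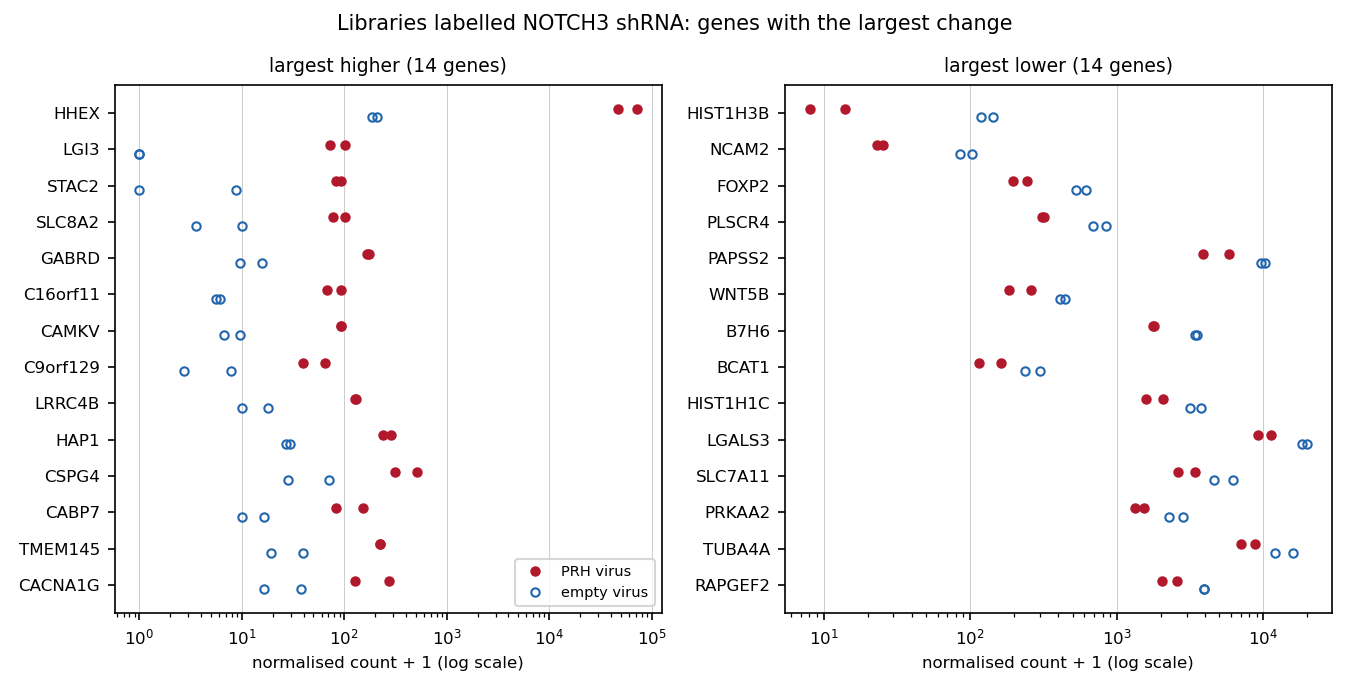
Normalised count + 1 on a log axis for each library labelled NOTCH3 shRNA, with PRH virus libraries as filled red points and empty virus libraries as open blue points, for 14 of the 15 passing genes with the largest rise (left) and 14 of the 15 with the largest fall (right), each averaging 50 or more in one of the groups. LGI3 is at 0 in both empty virus libraries, and HIST1H3B has 13.1 and 7.03 with the PRH virus against 142 and 117 with the empty virus.

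The falls were smaller. HIST1H3B, a replication-dependent histone H3 gene whose mRNA lacks a poly(A) tail, had 13.1 and 7.03 normalised counts with the PRH virus, against 142 and 117 with the empty virus, a log2 fold change of -3.61 ± 0.54 (SE; limma, adjusted p = 0.0161). Histone H3 genes have near-identical copies, so its reads may be split between them. Of the 18 tested genes in the list of RNAs without a poly(A) tail it was the 1 that passed, and 13 had a negative value, with a median log2 fold change of -0.29. In control shRNA cells, where 11.8% of all genes tested fell, all 18 had a negative value and 6 fell, with a median of -1.89. The libraries were made from poly(A) RNA, and the part of the selection in these values was not tested. FOXP2, a forkhead transcription factor, had 194 and 245 with the PRH virus, against 528 and 616 with the empty virus, a log2 fold change of -1.38 ± 0.24 (limma, adjusted p = 0.0255). LGALS3, which encodes galectin-3, a lectin that binds galactosides, had 9254 and 11241 with the PRH virus, against 19882 and 18239 with the empty virus, a log2 fold change of -0.90 ± 0.15 (limma, adjusted p = 0.0205). As with the rises, groups that do not overlap were part of the choice.

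B7H6, a ligand of the natural killer cell receptor NKp30, was close to equal within each group, with 1804 and 1775 normalised counts with the PRH virus and 3551 and 3440 with the empty virus (log2 fold change -0.97, limma, adjusted p = 0.034). SLC7A11, the cystine/glutamate exchanger, had 3416 and 2598 with the PRH virus, against 6215 and 4610 with the empty virus (log2 fold change -0.85, limma, adjusted p = 0.034). PRKAA2, a catalytic subunit of AMP-activated kinase, had 1324 and 1544 with the PRH virus, against 2256 and 2850 with the empty virus (log2 fold change -0.83, limma, adjusted p = 0.0242). Others among the 15 largest falls were NCAM2, a neural adhesion protein, PLSCR4, a phospholipid scramblase, PAPSS2, which makes the sulfate donor PAPS, the Wnt ligand WNT5B, BCAT1, a branched-chain aminotransferase, the linker histone HIST1H1C, the alpha tubulin TUBA4A and RAPGEF2, an exchange factor for Rap. Their log2 fold changes were -1.94, -1.28, -1.07, -0.97, -0.96, -0.93, -0.81 and -0.79.

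The calls of the falls were lost more often than those of the rises. Of the 15 largest rises 11 passed without empty virus library A, and all 15 passed without library B of that virus. Of the 15 largest falls 1 passed without empty virus library A, which was PRKAA2, and 4 without empty virus library B, which were HIST1H3B, LGALS3, SLC7A11 and TUBA4A. With all libraries rescaled to equal totals 8 passed, and the median over all genes tested was then 0.06 on the log2 scale. Of these 15 genes 8 also fell in control shRNA cells, where 11.8% of all genes fell, 6 did not pass there and TUBA4A rose there; 4 fell in parental cells, where 5.73% of genes fell.

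The gene lists are described next, and the libraries behind each call matter in the same way. Their counts are to be read beside the shares over all genes tested. In the cells labelled NOTCH3 shRNA 1.90% rose and 0.309% fell, and in control shRNA cells 15.2% rose and 11.8% fell. The difference between the populations passed as higher for 3.48% and as lower for 4.91%. Of the 26 listed genes that passed, 6 passed without empty virus library A and 17 passed without library B of that virus, and none passed with either PRH virus library left out. The 6 were TLE2, ITGA5, PLAUR, COL6A2, TGFB1 and MT1A, and they passed without empty virus library B too. Without that library the calls of WNT5B, ADAM17, PLXND1, BMP6, FZD1, TCF7, HYOU1 and DGAT2 were among those lost.

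Among the Notch genes listed, NOTCH1 rose. NOTCH1 had 1596 and 1266 normalised counts with the PRH virus, against 727 and 772 with the empty virus, a log2 fold change of 0.92 ± 0.14 (SE; limma, adjusted p = 0.0161). ADAM17, one of the proteases that can cleave Notch receptors, had 2783 and 2971 with the PRH virus, against 3821 and 3981 with the empty virus, a log2 fold change of -0.44 ± 0.09 (limma, adjusted p = 0.0489). These were the only calls among 27 receptors, ligands and machinery genes tested, whose median log2 fold change was 0.06, and the call of ADAM17 was lost with edgeR. Of 9 Notch target genes tested none passed in the cells labelled NOTCH3 shRNA and 8 had a positive value, with a median of 0.32. HES1, a Notch-responsive repressor, had 4245 and 3557 with the PRH virus, against 3414 and 2847 with the empty virus (log2 fold change 0.32, limma, adjusted p = 0.446). In control shRNA cells 7 of the 9 rose, with a median of 0.99, and the difference between the populations passed for 3.

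TLE2, a Groucho-family co-repressor that belongs to the known partners of PRH, had the smallest adjusted p after HHEX. It had 2520 and 2716 normalised counts with the PRH virus, against 609 and 752 with the empty virus, a log2 fold change of 1.95 ± 0.14 (SE; limma, adjusted p = 0.000984). The log2 fold change was 2.42 in control shRNA cells and 2.14 in parental cells, and TLE2 passed in both. It was the 1 member of 16 tested PRH partners and targets that passed, and the median of that list was -0.08. VEGFA, a growth factor of blood vessels, had 4613 and 4158 with the PRH virus, against 5411 and 5574 with the empty virus, which is -0.33 on the log2 scale and did not pass (limma, adjusted p = 0.29). In control shRNA cells VEGFA rose by 0.80, and the difference of -1.13 passed (limma, adjusted p = 0.0107). PLXND1, a receptor for semaphorins, was the 1 gene of 18 in the list of VEGF, semaphorin and angiogenic genes that rose, with 1181 and 803 against 445 in both empty virus libraries (log2 fold change 1.13, limma, adjusted p = 0.0245).

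Lists of adhesion and matrix genes differed in their calls. None passed among the 21 tested genes in the separate list of integrins and laminins. The same held for the 34 genes of epithelial junctions and keratins and the 19 of cell polarity. In the list of mesenchymal and invasion genes 4 of 22 rose and none fell, with a median log2 fold change of 0.31. ITGA5, the fibronectin receptor subunit, had 3570 and 4071 normalised counts with the PRH virus, against 1545 and 2096 with the empty virus (log2 fold change 1.08, limma, adjusted p = 0.0123). PLAUR, the urokinase receptor, and THY1, a surface glycoprotein, rose by 0.91 and 1.11. ITGA5, PLAUR and THY1 also rose in control shRNA cells.

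Among 21 collagen and matrix genes 3 rose and none fell, with a median of 0.01. COL6A1 and COL6A2, chains of type VI collagen, rose by 1.45 and 1.21, and LOXL2, a lysyl oxidase that cross-links matrix, rose by 1.19. LOXL2 had 1458 and 1782 normalised counts with the PRH virus, against 623 and 805 with the empty virus. Its rise was smaller than the 2.18 in control shRNA cells (difference -0.99, limma, adjusted p = 0.0348). FBLN1, the matrix protein fibulin-1, rose by 1.38, also less than in control shRNA cells (difference -1.82, limma, adjusted p = 0.0111). Of 8 fibroblast markers tested, THY1 and FBLN1 rose, and the summed level of the list was 53966 to 61563 with the PRH virus and 48002 to 50677 with the empty virus. Most of that sum came from COL1A2 (10610 to 12776 over the 4 libraries), COL3A1 (14214 to 20217) and ACTA2 (16063 to 25722), while LUM, PDGFRA and DPT were at 0 in all 4 and DCN and POSTN stayed under 10 normalised counts. The summed level of the leukocyte markers was 3585 to 4505 with the PRH virus and 3098 to 3548 with the empty virus, with PTPRC, the defining marker, at 2.34 to 24.1 and CD68 and CORO1A at the levels given above. The summed level of the cholangiocyte markers was 156903 to 163110 with the PRH virus and 165353 to 173933 with the empty virus. The part of other cells in these results was not tested.

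In the list of TGF-beta and BMP genes 3 of 21 rose and none fell, with a median of 0.16. TGFB1, the ligand, had 6709 and 6941 normalised counts with the PRH virus, against 3750 and 4082 with the empty virus, a log2 fold change of 0.80 ± 0.08 (SE; limma, adjusted p = 0.00913). ID3, an inhibitor of basic helix-loop-helix factors that BMP signals induce, had 4297 and 5022 with the PRH virus, against 2247 and 2536 with the empty virus, a log2 fold change of 0.96 ± 0.15 (limma, adjusted p = 0.0171). BMP6, a ligand, rose by 1.29. TGFB1 rose by a like size in control shRNA cells (0.67) and in parental cells (0.75), whereas ID3 and BMP6 had values of 0.18 and 0.69 in control shRNA cells that did not pass, and for neither did the difference between populations pass. In parental cells ID3 rose by 0.43 (limma, adjusted p = 0.0407) and BMP6 had a value of 0.09 that did not pass. Of 25 Wnt genes FZD1, a receptor, and TCF7, a transcription factor, rose by 0.98 and 0.59, and WNT5B fell.

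Metallothioneins, small proteins that bind zinc and copper, had the largest rises among the listed genes that passed. MT1A had 797 and 544 normalised counts with the PRH virus, against 175 and 138 with the empty virus, a log2 fold change of 2.08 ± 0.22 (SE; limma, adjusted p = 0.00913). MT1F had 407 and 668 with the PRH virus, against 106 and 146 with the empty virus, a log2 fold change of 2.06 ± 0.29 (limma, adjusted p = 0.0152). They were 2 of 10 tested genes of the list, and the median of the list was 0.27, against 1.84 in control shRNA cells, where 8 rose. Metallothionein genes are near-identical copies, so the counts of single members are uncertain. Other single members that rose were DGAT2, an enzyme of triglyceride synthesis (log2 fold change 1.14), and ADA, adenosine deaminase (1.14). HYOU1, a chaperone of the endoplasmic reticulum, fell by 0.39.

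Over all 37 gene lists, which hold 776 different genes, 704 were tested, of which 20 rose and 6 fell, and 22 lists had no member that passed. Of all genes tested 1.90% rose and 0.309% fell, so a list without a call says little. Several of these lists were moved in control shRNA cells. Of 33 interferon-stimulated genes 18 rose there and none passed in the cells labelled NOTCH3 shRNA, with medians of -0.02 in the cells labelled NOTCH3 shRNA and 1.38 in control shRNA cells. Of all genes tested 15.2% rose in control shRNA cells. The difference between the populations passed for 8 of the 33, all lower in the cells labelled NOTCH3 shRNA, against 4.91% lower over all genes tested. OAS3, an antiviral enzyme, had 11810 and 11976 normalised counts with the PRH virus and 16740 and 16581 with the empty virus in the cells labelled NOTCH3 shRNA, against 145 and 105 with the PRH virus and 8.20 and 21.5 with the empty virus in control shRNA cells. Its level in control cells thus stayed below that of the cells labelled NOTCH3 shRNA under either virus. In the cells labelled NOTCH3 shRNA its log2 fold change was -0.49 ± 0.35 (SE; limma, adjusted p = 0.524). The libraries of OAS3 do not overlap there, and the spread in the fit is shared with the control shRNA libraries, where it was low.

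Genes of the unfolded protein response and of amino acid stress differed between the populations. Of 30 genes 2 fell in the cells labelled NOTCH3 shRNA, HYOU1 and SLC7A11, and 27 had a negative value, with a median of -0.26. In control shRNA cells 13 rose and 1 fell, with a median of 0.43, and the difference passed for 12, all lower in the cells labelled NOTCH3 shRNA. TRIB3, a pseudokinase induced by this stress response, had 6339 and 5285 normalised counts with the PRH virus and 9404 and 8958 with the empty virus in the cells labelled NOTCH3 shRNA (log2 fold change -0.67, limma, adjusted p = 0.161), while it rose by 1.11 in control shRNA cells (difference -1.77, limma, adjusted p = 0.00897). OAS3 and TRIB3 were chosen after their values were seen.

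Among 34 genes of epithelial junctions and keratins none passed in the cells labelled NOTCH3 shRNA, 30 had a negative value and the median was -0.31. CDH1 had 35063 and 28462 normalised counts with the PRH virus, against 45665 and 36592 with the empty virus (log2 fold change -0.37, limma, adjusted p = 0.854). Its libraries do not overlap, and the spread in the fit (SE 0.76) is shared with the control shRNA libraries, where CDH1 was low. For listed genes that are low there, a missing call says little. EPCAM, an epithelial adhesion protein, had 24682 and 23795 with the PRH virus, against 34253 and 28044 with the empty virus (log2 fold change -0.35, limma, adjusted p = 0.58). CDH2, N-cadherin, had 63.6 and 29.3 with the PRH virus, against 52.5 and 84.4 with the empty virus, and its libraries overlap. HSPA6, an inducible heat shock protein, had 36.6 and 61 with the PRH virus and 78.3 and 16 with the empty virus, also with overlap. CDKN1A, the CDK inhibitor p21, had 3040 and 4075 with the PRH virus, against 2471 and 2678 with the empty virus (log2 fold change 0.45, limma, adjusted p = 0.187); in control shRNA cells it rose by 1.36 and the difference of -0.91 passed (limma, adjusted p = 0.0391).

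Other lists leaned one way without a call in the cells labelled NOTCH3 shRNA, where the median over all genes tested was -0.01. There 24 of 28 mitosis genes had a positive value (median 0.16). A negative value was held by 22 of 23 ribosome biogenesis genes (median -0.16) and 21 of 25 cholesterol genes (median -0.30). In control shRNA cells 18 of the 23 (median -0.11) and 19 of the 25 (median -0.30) were negative too. Only 8 of the 28 mitosis genes were positive there (median -0.16).

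**Figure D3:**
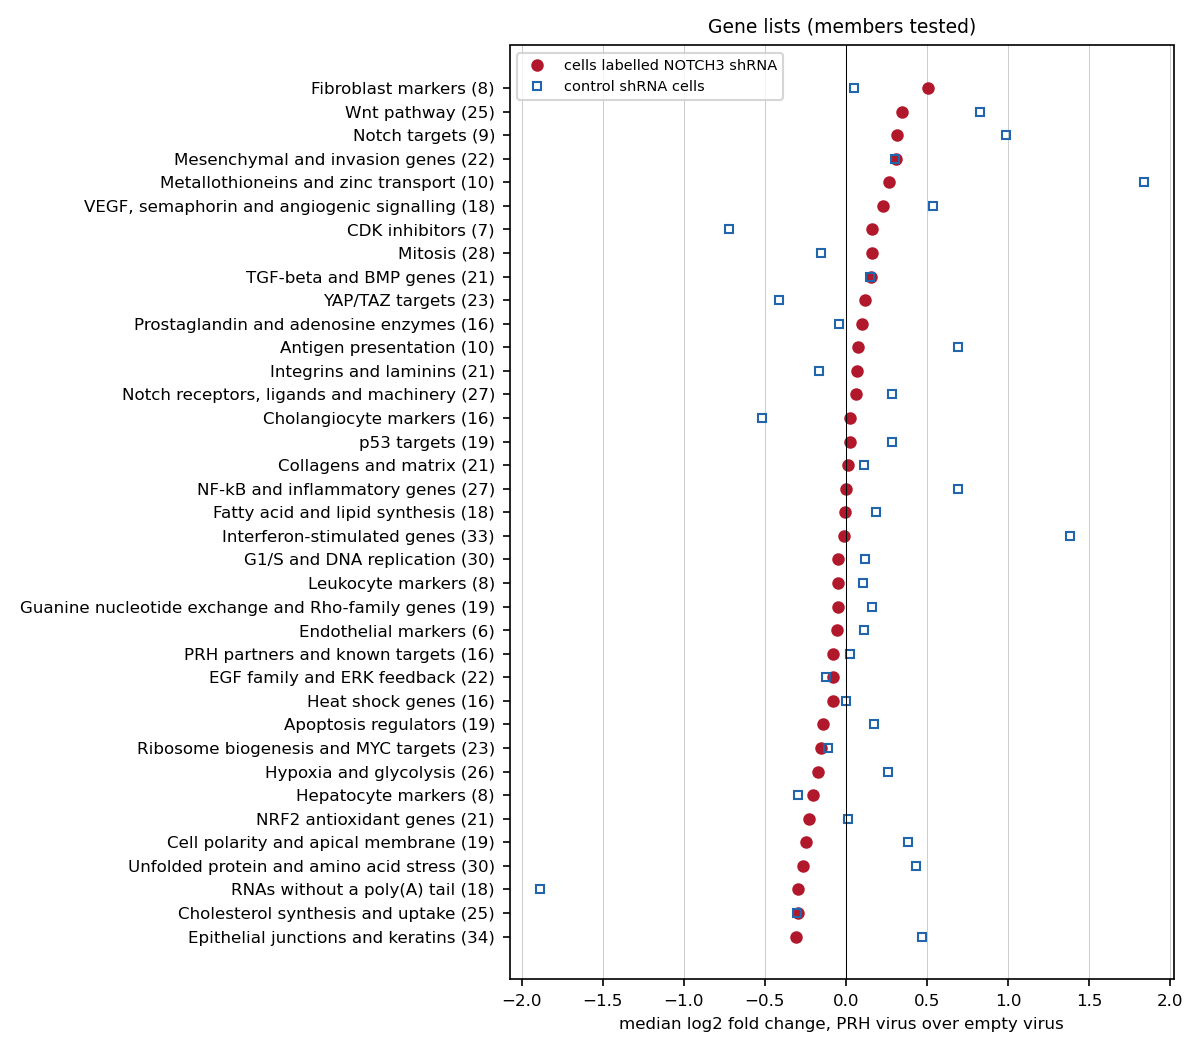
Median log2 fold change of PRH virus over empty virus for the tested members of each of the 37 gene lists, with the number of members tested in brackets, for the cells labelled NOTCH3 shRNA (red circles) and for control shRNA cells (open blue squares). The medians of the cells labelled NOTCH3 shRNA lie between -0.31 and 0.50, and those of control shRNA cells between -1.89 and 1.84.

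The genes that rose with PRH virus in the cells labelled NOTCH3 shRNA were then set beside those of control shRNA cells. In the latter 2412 genes rose (15.2% of those tested) and 1870 fell (11.8%). These comparisons share no library. Of the 301 genes that rose, 216 also rose in control shRNA cells, which is 71.8% of the 301 and 8.96% of the 2412; 8 fell there, and 282 had the same sign. Of the 49 that fell, 26 also fell in control shRNA cells, which is 53.1% of the 49 and 1.39% of the 1870; 6 rose there. The median over the 301 genes was 1.16 in the cells labelled NOTCH3 shRNA and 1.06 in control shRNA cells, but the members were chosen on the first of these. Over the 2412 genes that rose in control shRNA cells, the median was 0.15 in the cells labelled NOTCH3 shRNA and 1.02 in control shRNA cells, with the converse limit. In parental cells 9.9% of the genes tested rose. There 189 of the 296 that were tested also rose, 63.9% of the 296. This is 14.4% of the 1310 genes that rose there and were tested in both tables. HHEX, which the virus carries, is counted among the 216 and the 189. Across all 15836 genes the log2 fold changes of the 2 populations had a Pearson correlation of 0.30, given only to describe these libraries, since genes are no replicates.

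The difference between the virus effects passed for 1329 genes (8.39% of those tested; limma), with 551 higher (3.48%) and 778 lower (4.91%) in the cells labelled NOTCH3 shRNA. Of the 778 lower ones, 728 rose in control shRNA cells and did not pass in the cells labelled NOTCH3 shRNA. Of the 551 higher ones, 500 fell in control shRNA cells and did not pass in the cells labelled NOTCH3 shRNA. Among the other higher ones, 15 rose in the cells labelled NOTCH3 shRNA without passing in control shRNA cells, 8 rose in the cells labelled NOTCH3 shRNA and fell in control shRNA cells, 1 rose in both, 7 fell in both and 20 passed in neither. Among the other lower ones, 6 fell in the cells labelled NOTCH3 shRNA without passing in control shRNA cells, 6 fell in the cells labelled NOTCH3 shRNA and rose in control shRNA cells, 9 rose in both and 29 passed in neither.

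The 8 genes with the largest lower value were at or near 0 with the empty virus in control shRNA cells. They were higher with the empty virus in the cells labelled NOTCH3 shRNA. PRRT4 (13.8 and 25.1 normalised counts) and HERC5 (64.5 and 13.7) were low in those libraries as well. PTGES, prostaglandin E synthase, had 745 and 760 normalised counts with the PRH virus and 603 and 609 with the empty virus in the cells labelled NOTCH3 shRNA, against 701 and 534 with the PRH virus and 10.2 and 0 with the empty virus in control shRNA cells (difference -7.20, limma, adjusted p = 0.00832). FUT1, a fucosyltransferase, had 738 and 632 with the PRH virus and 1220 and 1096 with the empty virus in the cells labelled NOTCH3 shRNA, against 55.4 and 45.4 with the PRH virus and 0 in both empty virus libraries of control shRNA cells (limma, adjusted p = 0.00054), where it was at least 15.6-fold higher with the PRH virus at a floor of 3 reads per library. BCAM, a laminin receptor, and GALNT6, a glycosyltransferase, had under 7 normalised counts in each empty virus library of control shRNA cells, and 360 to 1173 and 4893 to 5527 in the empty virus libraries of cells labelled NOTCH3 shRNA. LAMA1, a laminin chain, PRRT4, HERC5 and LOC100130238 complete the 8.

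Of the genes with the largest higher value, ADAMTS6, SHROOM2, NDP and HGF were at 0 in both PRH virus libraries of control shRNA cells and between 15.4 and 38.5 in their empty virus libraries, so that their differences rest on few reads there. HGF, hepatocyte growth factor, had 266 and 375 normalised counts with the PRH virus and 381 and 441 with the empty virus in the cells labelled NOTCH3 shRNA (log2 fold change -0.38, limma, adjusted p = 0.783). PCDH9, a protocadherin, had 143 and 147 with the PRH virus and 81.7 and 36.5 with the empty virus in the cells labelled NOTCH3 shRNA, and 42.6 and 70.5 with the PRH virus and 456 and 476 with the empty virus in control shRNA cells (difference 4.45, limma, adjusted p = 0.00424). KRTAP3-2, ANKRD20A4 and SLCO1A2 were the other 3. Of these 16 genes FUT1, LOC100130238, GALNT6, LAMA1, SHROOM2 and PCDH9 passed under every alternative that gave a value, while PRRT4 and ANKRD20A4 passed under 7 of 19 and KRTAP3-2 under 9 of 19.

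Other genes passed in the cells labelled NOTCH3 shRNA and had another response in control shRNA cells, at higher levels in both populations. HOXB2, a homeobox gene, had 4612 and 3959 normalised counts with the PRH virus and 1826 and 2186 with the empty virus in the cells labelled NOTCH3 shRNA, and 8217 and 6870 against 8500 and 7824 in control shRNA cells (difference 1.21, limma, adjusted p = 0.0047). CAV1, the coat protein of caveolae, rose by 0.55 in the cells labelled NOTCH3 shRNA and fell by 0.55 in control shRNA cells (difference 1.10, limma, adjusted p = 0.00332). GATA3 and SALL1, both transcription factors, and IGF2BP1, an RNA-binding protein, also rose in the cells labelled NOTCH3 shRNA and fell in control shRNA cells, with differences of 1.30, 1.27 and 0.84. The opposite held for SLC1A4, an amino acid transporter, ADAM15, a membrane protease, and TUBA4A. TUBA4A had 8785 and 7081 with the PRH virus and 15886 and 11960 with the empty virus in the cells labelled NOTCH3 shRNA, and 1278 and 1172 against 270 and 304 in control shRNA cells (difference -2.90, limma, adjusted p = 0.000356). Without empty virus library A the calls of CAV1, GATA3, IGF2BP1, SLC1A4, ADAM15 and TUBA4A in the cells labelled NOTCH3 shRNA were lost, and without empty virus library B those of CAV1, GATA3, SLC1A4 and ADAM15. All of these genes except TUBA4A were chosen after their values were seen, and in HOXB2 the values with the PRH virus stayed below those of control shRNA cells.

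**Figure D4:**
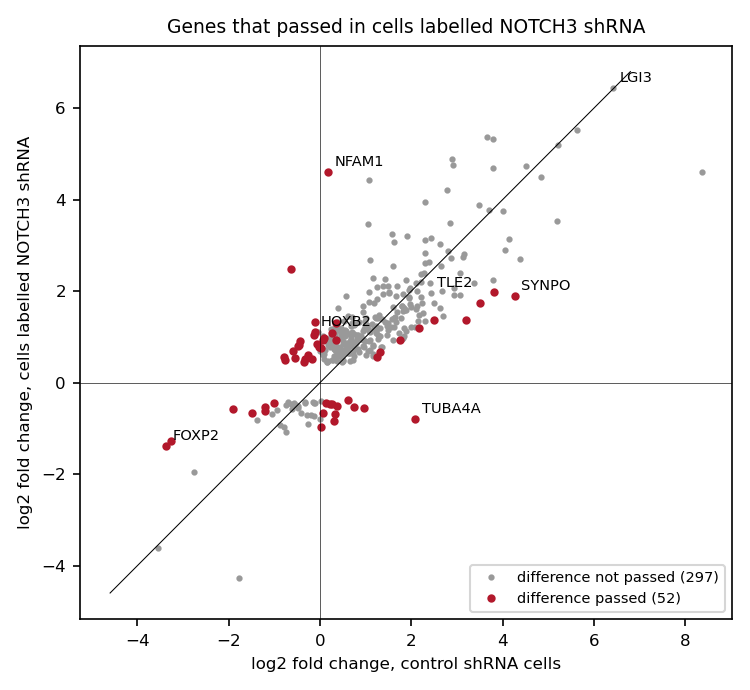
Log2 fold change of PRH virus over empty virus in the cells labelled NOTCH3 shRNA (y axis) against that in control shRNA cells (x axis) for the genes that passed in the cells labelled NOTCH3 shRNA, HHEX left out. Red points are the 52 genes whose difference between the populations passed, and the line marks equal values; TUBA4A lies below 0 on the y axis and above 0 on the x axis.

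The genes that set the populations apart leaned towards the control shRNA level with the PRH virus. The genes taken had at least 1000 normalised counts in each library of one population, were at least 5-fold higher there by the means and either did not pass for the virus in control shRNA cells or stayed under 10 there. Over the 278 such genes higher in cells labelled NOTCH3 shRNA, the median level was 92% and 88.9% of the population mean in the PRH virus libraries and 112% and 105% in the empty virus libraries. Of these 278 genes 51 had a positive log2 fold change, the median was -0.25, none rose and 1 fell. Their median level in the control shRNA libraries was 0.282% to 0.427% of the population mean. The fit shares its spread with those libraries, so the near lack of calls among these genes says little. Of the 19 such genes higher in control shRNA cells, 13 had a positive log2 fold change and the median was 0.34. Among these 19 genes 3 rose and 1 fell. Their median level in the cells labelled NOTCH3 shRNA was 10.6% and 13.5% of the control level with the PRH virus. With the empty virus it was 4.89% and 6.69%. The part of cells of the other population in these values was not tested.

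Base composition went with direction. The median GC content of the longest transcript was 59.4% in the genes that rose and 44.1% in those that fell, against 49% over all tested genes with a value. In control shRNA cells it was 57.7% and 43%. Over the 12623 genes with a GC value that averaged at least 50 normalised counts, among the 2525 with the highest GC content (58.4% to 74.7%) 148 rose and 4 fell, and among the 2525 with the lowest (29.6% to 40.9%) 12 rose and 17 fell. With a GC trend removed from each library, an alternative chosen after seeing the data, 343 genes passed, of which 69.4% rose, against 86% in the main result, and 264 were shared with it; of the genes named here that passed, NCAM2, ADAM17 and TCF7 did not pass. Across libraries of 1 group the correlation of the A minus B difference with GC content was -0.02 with the PRH virus and -0.06 with the empty virus, against 0.20 for the log2 fold change (12623 genes). The cause of the GC trend was not tested.

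**Figure D5:**
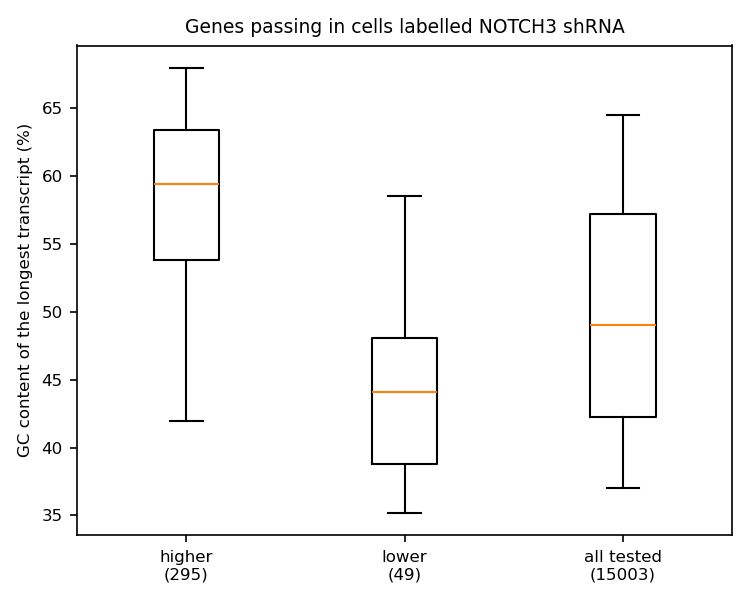
GC content of the longest annotated transcript (%) for the genes that rose, the genes that fell and all genes tested in the cells labelled NOTCH3 shRNA, with the number of genes that have a value below each name. Boxes span the quartiles with the median as a line and whiskers run from the 5th to the 95th percentile; the medians are 59.4%, 44.1% and 49%.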

How the data were processed

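The deposited values were normalised counts per gene (a signal unit: read counts divided by size factors), and the submitters' processing notes name Trim Galore, TopHat, featureCounts and DESeq2 and the build hg19, with no versions. Each value was a whole multiple of the smallest value of its library (100% within 1e-06), so the reads could be recovered; edgeR on these recovered reads called 403 genes. The 28 rows whose symbols had turned into dates, holding 0.229% to 0.237% of the reads of the 4 libraries, were left out. Column names give groups but no replicate number; A and B follow column order.

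Log2(value + 1) was fitted with limma 3.58.1 (R 4.3.3) over the 8 libraries, with group means and an intensity trend, for genes that reached 10 normalised counts in 2 or more libraries. Calls are at a Benjamini-Hochberg adjusted p under 0.05, and fold changes understate those of low genes. Parental cells were fitted in their own table. On simulated data of the comparison with genes of a mean of at least 50, the fit recovered 55% of 2-fold changes and 88% of 4-fold changes, with 6.78% and 4.35% of calls false. The simulation gave each gene the same spread in all 8 libraries, as the fit assumes. These shares therefore do not carry over to real groups of unequal spread. Alternatives included edgeR 4.0.16 and DESeq2 1.42.0. GC content came from GENCODE transcripts matched by symbol (94.7% of tested genes), promoters from RefSeq.

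Named genes were HHEX, NOTCH3, the 15 rises and 15 falls largest in fold among those that passed with a mean of at least 50 and no overlap, up to 4 passing members per list and direction, 6 preset genes and the 8 largest differences per direction; the rest were chosen after their values were seen. Members and lists were chosen with earlier results of these data known. The 2 libraries of a group are separate infections of 1 line, per the design text, so the p-values measure only the spread between infections. Libraries of 1 group differed by more than sampling noise (chi-square per degree of freedom 39 and 57.1). Some genes that meet these rules are not reported here.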

Additional observations from a re-analysis of the deposited data

Results flagged for a closer look

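The virus effect differed between the cells labelled NOTCH3 shRNA and control shRNA cells for 1329 genes by the test of the difference itself (limma, adjusted p under 0.05). HHEX itself reached 71910 and 46576 normalised counts with the PRH virus in the former and 228980 and 330421 in the latter. The part of this unequal level in the differences was not tested. Values below are the difference of log2 fold changes, cells labelled NOTCH3 shRNA minus control shRNA cells, for the genes chosen by the naming rule that passed that test. Genes chosen after their values were seen are given with their differences elsewhere in the text.

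Of genes with a negative difference that rose in control shRNA cells, NOTCH3 had -1.47, VEGFA -1.13 and CDKN1A -0.91, and none of them passed in the cells labelled NOTCH3 shRNA. NOTCH1 with -0.82, LOXL2 with -0.99 and FBLN1 with -1.82 rose in both populations. TUBA4A with -2.90 and HYOU1 with -0.99 fell in the cells labelled NOTCH3 shRNA and rose in control shRNA cells. B7H6 with -0.99, SLC7A11 with -1.16 and ADAM17 with -0.57 fell in the cells labelled NOTCH3 shRNA and did not pass in control shRNA cells.

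Of genes with a positive difference, FOXP2 and PLSCR4, which fell in both populations, each had 1.99. EPCAM had 1.71: it did not pass in the cells labelled NOTCH3 shRNA and fell in control shRNA cells.

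The 8 largest negative differences were PTGES with -7.20, FUT1 with -6.44, LOC100130238 with -6.41, PRRT4 with -6.27, HERC5 with -6.24, BCAM with -6.04, GALNT6 with -5.80 and LAMA1 with -5.60. The 8 largest positive ones were ADAMTS6 with 5.33, KRTAP3-2 with 5.17, SHROOM2 with 4.84, ANKRD20A4 with 4.78, PCDH9 with 4.45, NDP with 4.19, HGF with 3.96 and SLCO1A2 with 3.54. Most of these genes were at or near 0 in a group, so the fitted sizes depend on the pseudocount and are no bounds.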

How the results depend on the processing

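The count of 350 genes in the cells labelled NOTCH3 shRNA was within 1.5 times under other pseudocounts, filters and scalings, edgeR (403) and both GC alternatives, which were chosen after seeing the data. The split moved more: 301 rose and 49 fell in the main result, 370 and 23 with equal library totals (94.1% rose, against 86%), and 238 and 105 with the GC trend removed. The count fell to 82 with no trend in the variance and to 3 with the 4 libraries of the comparison only, and it was 1096 with DESeq2 (743 rose, 353 fell). Leaving out 1 library gave 1 to 405. In control shRNA cells the count of 4282 became 2730 with no trend, and 2291 to 2958 with 1 library left out (2492 without PRH virus library B, 2291 and 2656 without empty virus libraries A and B). The count of 1329 differences became 351 with no trend, 2212 with DESeq2, and 500 to 1187 with 1 library left out. It was 743 and 500 without PRH virus libraries A and B labelled NOTCH3 shRNA, and, of control shRNA libraries, 747 without PRH virus library B and 716 without empty virus library A. With the GC trend removed, 42.7% of calls in control shRNA cells rose, against 56.3%, and 56.6% of the differences were higher, against 41.5%. With equal library totals the median over all genes in control shRNA cells was 0.10 on the log2 scale, and 69.9% of the calls rose. NOTCH3 was between -0.16 and 0.47 with 1 library left out and -0.035 with the GC trend removed. HSPA6 turned to -0.72 without empty virus library B. The causes were not tested.

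No paired analysis was possible because the columns of the table name groups and carry no replicate number. A left-out library leaves 1 in its group, which is then assumed to vary like the other groups. With 2 libraries a group the precision is set by the shared spread, and genes near 0 in a group rest on few reads.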

Other observations

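Genes with a call in both populations but a smaller rise in the cells labelled NOTCH3 shRNA include surface proteins that were chosen after their values were seen. SEMA6B, a transmembrane semaphorin, had 1414 and 1545 normalised counts with the PRH virus, against 239 and 576 with the empty virus, in the cells labelled NOTCH3 shRNA, a log2 fold change of 1.99, while it was 3.81 in control shRNA cells (difference -1.82, limma, adjusted p = 0.0445). MCAM, a cell adhesion protein of the immunoglobulin family, had 481 and 510 with the PRH virus, against 138 and 160 with the empty virus, a log2 fold change of 1.73, while it was 3.51 in control shRNA cells (difference -1.78, limma, adjusted p = 0.0427). SYNPO, an actin-associated protein, rose by 1.89 in the cells labelled NOTCH3 shRNA and by 4.26 in control shRNA cells (difference -2.38, limma, adjusted p = 0.0188).

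Genes that rose in the cells labelled NOTCH3 shRNA and did not pass in control shRNA cells, also chosen after their values were seen, include abundant transcripts. EMP1, a tetraspan membrane protein, had 41203 and 47963 with the PRH virus, against 21495 and 28230 with the empty virus (log2 fold change 0.85, limma, adjusted p = 0.0242), and a log2 fold change of -0.06 in control shRNA cells. DYNC2H1, the heavy chain of the motor of intraflagellar transport, had 3075 and 3792 with the PRH virus, against 1129 and 1654 with the empty virus (log2 fold change 1.32, limma, adjusted p = 0.0123), and -0.12 in control shRNA cells. FKBP10, a prolyl isomerase that acts on collagen, and NEAT1, a long noncoding RNA of paraspeckles, rose by 0.94 and 0.79. Without empty virus library A the calls of EMP1, MCAM and NEAT1 were lost, and without empty virus library B those of SYNPO and MCAM.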
